A study of Mus musculus with 42 samples.

Results

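The regions described here were stretches of chromatin that were more accessible in cultured lung mesenchymal cells on both a stiff and a soft gel than in freshly sorted cells, and that were absent from the list of regions changed by lung injury. They were taken from the authors' deposited list of regions that differed between 32 kPa gels and sham. A region was a member when its mean log2 read concentration was higher on 32 kPa than in sham, when it overlapped by at least 1 base a region of the 0.2 kPa against sham list that was higher on 0.2 kPa, and when it overlapped no region of the list of day 14 after bleomycin against sham. The rule found 2868 regions among the 58510 of the 32 kPa list, of which 17328 were higher on 32 kPa. Of the 5543 regions gained on both gels, the members made up 51.7%, and the other 2675 overlapped the day 14 list, 2671 of them higher and 4 lower at day 14.

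The study compared cells in culture with cells in the lung, by RNA-seq (21 libraries) and by ATAC-seq (21 libraries), which reads out open DNA through the insertions of a transposase. The cultured cells came from CD1 mice with a Col1a1-GFP reporter. They were GFP-positive and negative for CD45, EpCAM and CD31, and grew for 5 days on collagen-coated silicone gels of 32 kPa or 0.2 kPa in serum-containing medium. CD1 sham cells had the same reporter and gate and were not cultured. Each of these 3 groups had 3 libraries per assay. The injury groups came from C57BL/6 mice with a Col1a2-lineage trace, negative for CD45 and EpCAM with no CD31 gate: 14 days after bleomycin, 56 days after bleomycin, and sham, with 4 libraries per assay each. All animals' lungs were digested with enzymes before the sort, so sham cells were dissociated too. Strain, reporter and gate differ between the culture and the injury experiment and cannot be told apart from each other, and absence from the day 14 list means only that a region did not pass that list's thresholds in C57BL/6 cells. Replicates carry a number only, with no statement that they were separate animals or cultures. The p-values therefore rest on the spread among these libraries alone, and that spread may be technical.

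A cell plated on a gel leaves its tissue, meets serum and begins to spread and divide. AP-1, a family of paired FOS, JUN, ATF and MAF proteins, binds a short near-palindromic site and helps to open distal enhancers during such transitions. TEAD factors, which bind DNA for the mechanically controlled co-activators YAP and TAZ, often occupy the same enhancers, and RUNX factors are known partners of both.

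The sequences below are from members beside genes described further on and show what the most frequent motif looked like in place. All are from the GRCm38 reference (the assembly also called mm10), plus strand, 5′ to 3′. In the first group the capitals mark the AP-1 letters TGANTCA, which read the same on both strands. The first pair are the whole regions at the promoters of Serpinb2 (chr1:107511243-107511522), which lay across the start site, and Mmp10 (chr9:7502150-7502347), which lay just before it, and the rest are windows of 41 bases around a match.

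Serpinb2: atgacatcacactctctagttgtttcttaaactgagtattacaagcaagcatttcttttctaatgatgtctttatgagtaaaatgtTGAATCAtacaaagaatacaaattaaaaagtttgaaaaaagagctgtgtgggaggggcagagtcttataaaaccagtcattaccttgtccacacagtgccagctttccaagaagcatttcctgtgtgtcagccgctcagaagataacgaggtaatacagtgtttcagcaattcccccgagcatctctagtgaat
Mmp10: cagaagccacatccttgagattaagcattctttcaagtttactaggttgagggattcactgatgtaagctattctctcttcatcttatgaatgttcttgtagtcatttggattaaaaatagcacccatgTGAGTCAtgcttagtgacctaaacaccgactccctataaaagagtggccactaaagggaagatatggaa
Prl2c3: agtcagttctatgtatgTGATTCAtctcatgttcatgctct
Prl2c2: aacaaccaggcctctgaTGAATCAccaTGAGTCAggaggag
E2f8: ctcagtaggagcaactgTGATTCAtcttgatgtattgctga
Diaph3: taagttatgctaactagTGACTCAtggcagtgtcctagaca
Adam12: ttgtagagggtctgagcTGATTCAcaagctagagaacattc
Runx1: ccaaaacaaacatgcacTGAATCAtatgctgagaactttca
Cd34: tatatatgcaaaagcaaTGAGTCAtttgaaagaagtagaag
Dpp4: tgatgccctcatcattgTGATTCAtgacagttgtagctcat
Chl1: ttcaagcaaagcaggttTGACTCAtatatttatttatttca

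The 41-base windows were chr13:12800265-12800305 (Prl2c3), chr13:13026005-13026045 (Prl2c2, with 2 matches), chr7:48899715-48899755 (E2f8), chr14:86662992-86663032 (Diaph3), chr7:134237603-134237643 (Adam12), chr16:93182794-93182834 (Runx1), chr1:194909168-194909208 (Cd34), chr2:62350363-62350403 (Dpp4) and chr6:104039107-104039147 (Chl1). They came from members beside genes whose RNA was higher on the gels and beside genes whose RNA was lower, as described further on. A second group shows members with no AP-1 letters, each in a 40-base window in which capitals mark the TEAD letters GGAATG or, on the other strand, CATTCC. Their positions were chr13:11292032-11292071 (Ryr2), chr7:116000538-116000577 (Sox6) and chr4:95032929-95032968 (Jun).

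Ryr2: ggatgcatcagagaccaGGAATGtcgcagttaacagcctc
Sox6: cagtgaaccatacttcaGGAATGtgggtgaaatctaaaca
Jun: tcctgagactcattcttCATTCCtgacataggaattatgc

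The members were chosen for being higher on the gels, so their accessibility is given as a description with no test, and no value per ATAC library was used here. Concentrations are the authors' mean log2 normalised reads per group. The members had a median concentration of 6.28 on 32 kPa, against 3.00 in sham, and in the other list 5.65 on 0.2 kPa, against 2.96 in sham. Their log2 fold over sham had a median of 3.28 on 32 kPa (quartiles 2.52 and 3.88, range 0.31 to 6.09) and 2.75 on 0.2 kPa (quartiles 1.98 and 3.33, range 1.00 to 5.33). Both comparisons used the same sham libraries. In 2726 members (95.05%) the fold on 32 kPa was the larger of the pair. Only 11 members (0.384%) had the same coordinates in both lists, so nearly all pairs set regions with different boundaries side by side. The same sham libraries could therefore give different values in the 2 lists. At the edge of the rule, 18 members had a 32 kPa fold below 1 and the smallest overlap with a 0.2 kPa region was 16 bases. On the other side, the smallest overlap with a day 14 region that removed a region was 76 bases, and 51 members lay within 500 bases of a day 14 region. The median distance of a member to the nearest day 14 region was 41407 bases.

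**Figure D1:**
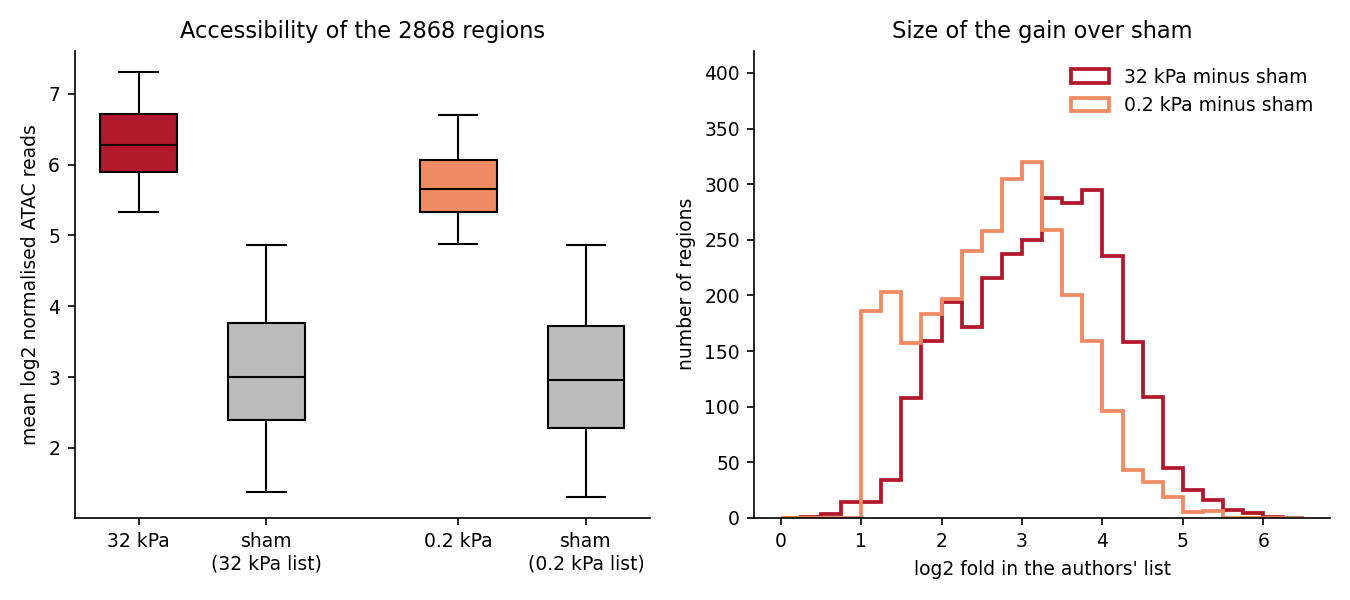
Left, mean log2 normalised ATAC reads of the 2868 members on each gel and in sham, from the authors' 2 lists (box, quartiles; line, median; whiskers, 5th to 95th percentile of regions). Right, the number of members by log2 fold over sham. The medians were 6.28 on 32 kPa and 5.65 on 0.2 kPa, against 3.00 and 2.96 in sham, and the folds on 32 kPa lay to the right of those on 0.2 kPa.

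A separate list, of regions that differed between the gels, was not part of the rule. It contained 116 members (4.04%), and all 116 were higher on 32 kPa than on 0.2 kPa, by a log2 fold of 1.00 to 1.32. The share was 3.22% among regions gained on both gels and higher at day 14 and 1.11% among regions lost on both gels. It was 13.2% among regions gained on 32 kPa with no 0.2 kPa list region. In those sets too, all listed regions (86, 447 and 1558) were higher on 32 kPa, so this direction was not particular to the members. This list shares its gel libraries with the lists that gave the members, so these shares are given as counts only. In the injury time course, 107 members (3.73%) were in the list of day 56 against day 14, and 106 of them were lower at day 56. They included 1 each beside Adam12, Jun, Cxcl12, Cd34 and Pla2g4a, while the member beside Tnc was higher. The share was 94.7% among regions gained on both gels and higher at day 14, a set chosen on day 14 values, all lower at day 56. It was 27.1% (3184 of 3194 lower) among regions gained on 32 kPa with no 0.2 kPa list region. Among lost regions it was 5.67%, 405 lower and 1882 higher at day 56. In the list of day 56 against sham were 5 of the 2868 members, 1 higher and 4 lower at day 56. The counts were 82 of the 2671 regions gained on both gels and higher at day 14, and 80 of the 40366 lost regions. Of the 11784 regions gained on 32 kPa with no 0.2 kPa list region, 82 were in that list. Having no 0.2 kPa list region means only that nothing there passed the thresholds of the 0.2 kPa list.

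The members were small and mostly lay far from start sites. Their median width was 282 bases (range 74 to 1313). By GENCODE vM21 protein-coding transcripts, 1651 members (57.6%) were intergenic, 1136 (39.6%) intronic, 43 (1.499%) exonic and 38 (1.32%) in a promoter, taken as 1000 bases before to 100 after a start site. Among the 40366 regions lost on both gels, 26.4% were in promoters. The median distance to the nearest start site was 53874 bases for members and 10697.5 bases for lost regions, and 36.8% of members lay more than 100 kb away. The regions gained on both gels and higher at day 14 had 1.05% in promoters and a median distance of 47675 bases. A smaller share of them than of members, 29.1%, lay more than 100 kb away. The members were spread over the genome: 587 (20.5%) lay within 50 kb of another, and the largest runs held 5 regions. One run spanned 78.2 kb at chr3:75870949-75949100, beside Golim4, which encodes a Golgi membrane protein. The other spanned 40.9 kb at chr17:13550669-13591599, next to Afdn, which encodes the junction protein afadin, and Tcp10c.

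The AP-1 letters TGANTCA were present in the central 300 bases of 1828 members (63.7%), searched on both strands. The same letters were in 74.5% of regions gained on both gels and higher at day 14, in 62.0% of regions gained on 32 kPa alone and in 14.3% of regions lost on both gels. Of 27025 annotated promoters from RefSeq (GRCm38), each 300 bases long, 7.91% had them. The matches gathered at the middle of the members, with 12.1 per 100 regions in the central 20 bases, against 1.22 and 1.43 per 100 in the outermost bins on either side. In 577 members there were 2 or more matches. These members had a median log2 fold on 32 kPa of 3.45, against 3.28 with 1 match and 3.16 with none, which is a small difference beside the quartiles of the whole set.

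**Figure D2:**
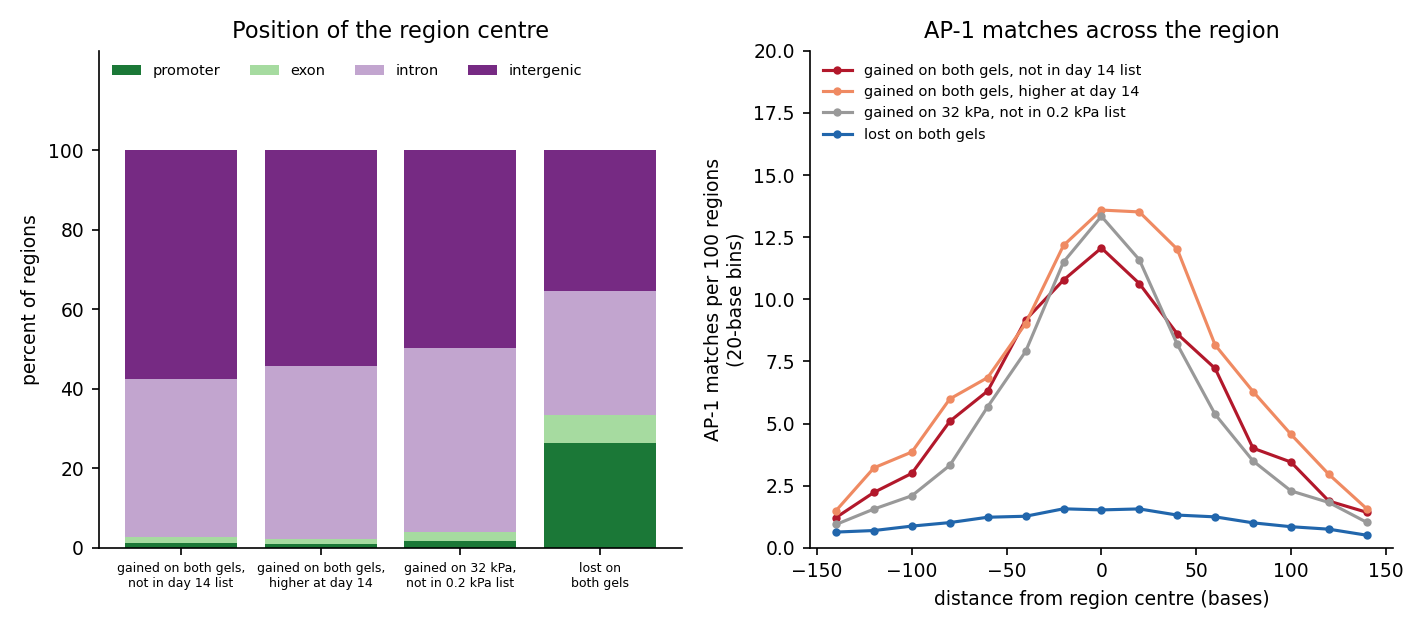
Left, the percent of regions whose centre lay in a promoter, exon, intron or between genes, for the members and 3 other sets of the 32 kPa list. Right, AP-1 matches per 100 regions in bins of 20 bases by distance from the region's centre. The members peaked at 12.1 matches per 100 regions in the central bin, and the lost regions were lower throughout, with 1.53 in the central bin and 0.634 and 0.508 in the outermost bins.

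The TEAD letters GGAATG were found in 36.3% of members, 33.8% of regions gained on both gels and higher at day 14, 16.6% of lost regions and 14.6% of promoters. AP-1 or TEAD letters, or both, were in 79.1% of members. TEAD letters were in 42.5% of members without AP-1 letters and in 32.7% of members with them. RUNX letters TGTGGTT were in 11.4% of members, 16.4% of regions gained on both gels and higher at day 14 and 4.76% of lost regions. The antioxidant response element bound by NRF2 was in 10.3% of members and 3.85% of lost regions, and its letters can overlap an AP-1 site. GC-rich SP/KLF letters ran the other way, in 0.488% of members and 10.3% of lost regions. The members had a median GC content of 44.3%, against 54.0% in lost regions, and 207 members (7.22%) were mostly repeat-masked, against 1.07% of lost regions. A match is a description of letters, and base composition differs between these sets.

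**Figure D3:**
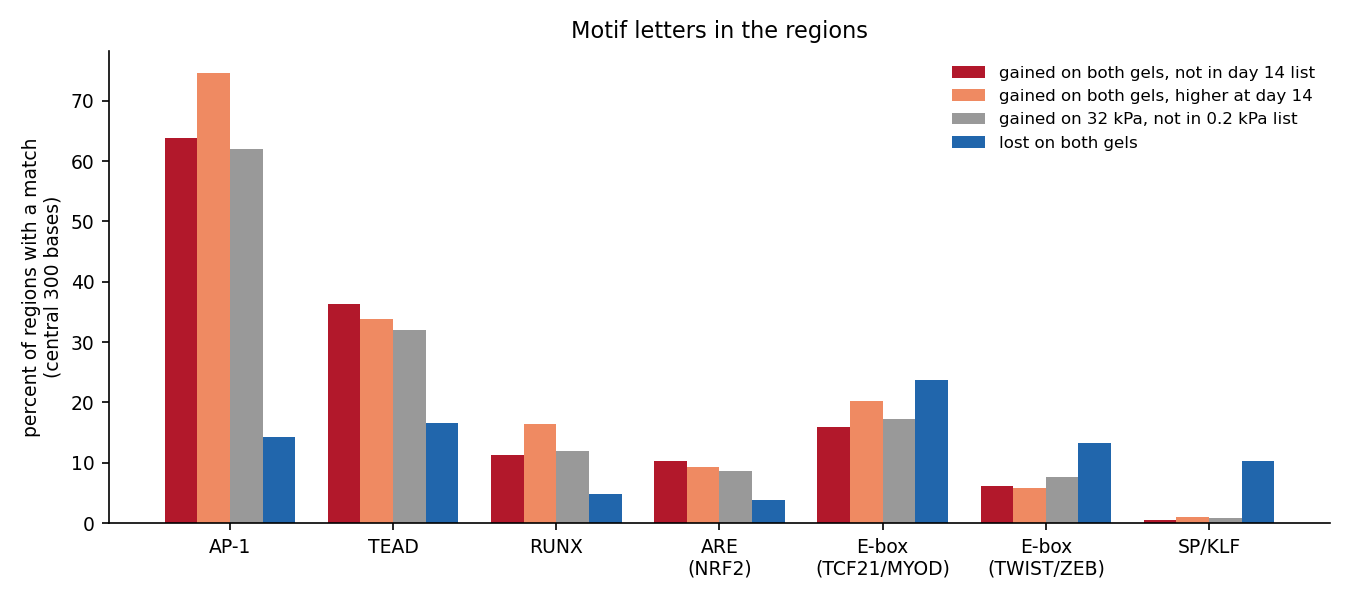
Percent of regions with at least 1 match to each motif in their central 300 bases, for the members and 3 other sets. AP-1 stood at 63.7% in members and 14.3% in lost regions, and SP/KLF at 0.488% and 10.3%.

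The RNA of the motif's own binding proteins was read from the same cell populations in separate libraries. Fosl1, which encodes the FOS-family protein FRA-1, had 262, 268 and 159 CPM on 32 kPa, 162, 188 and 230 CPM on 0.2 kPa, and 1.27, 1.34 and 1.79 CPM in sham. No gel library overlapped a sham library, and the log2 difference on 32 kPa was 7.13 (SE 0.23, limma adjusted p = 8.63e-10). Fos, the founding member of the family, had 3.35, 3.20 and 5.45 CPM on 32 kPa, against 2606, 2989 and 2628 CPM in sham. Jun, its usual partner, had 78.9, 87.2 and 69.4 CPM on 32 kPa, against 693, 710 and 694 CPM in sham. Of 15 AP-1 genes, 2 rose on 32 kPa (Fosl1 and Maff), 10 fell and 3 did not pass the threshold (Fosl2, Batf and Batf3). Among all tested genes, 32.4% rose and 41.1% fell on 32 kPa. In bulk RNA, fewer cells expressing a gene and less RNA per cell cannot be told apart. Sham cells were read after digestion and sorting without culture, and the part of these steps in their AP-1 RNA was not tested. Jun and Maf, a large MAF-family factor, were the AP-1 genes nearest to members: 2 members lay 19.4 and 26.1 kb from the Jun start site and 1 lay 170 kb from that of Maf, and the RNA of both fell.

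Among 23 tested YAP, TAZ and TEAD genes and targets, 13 rose and 5 fell on 32 kPa. The shares of all tested genes were 32.4% and 41.1%. Tead4 had 5.72, 7.57 and 6.56 CPM on 32 kPa, against 0.159, 0.148 and 0.197 CPM in sham. Yap1, which encodes the co-activator, had 180, 189 and 217 CPM on 32 kPa, against 116, 121 and 106 CPM in sham, a log2 difference of 0.64 (SE 0.093, limma adjusted p = 8.20e-05). A member lay near 5 genes of the list, and 4 of these rose on 32 kPa: Amotl2 and Lats2, brakes on YAP, Axl, a receptor tyrosine kinase, and Myof, a membrane-repair protein. Nt5e, which encodes the surface enzyme CD73, was the other and fell. Runx1 had 41.3, 44.0 and 36.5 CPM on 32 kPa, 34.2, 38.4 and 37.4 CPM on 0.2 kPa, and 6.17, 8.35 and 7.21 CPM in sham. The Runx1 member shown above lay 357 kb before its start site, at chr16:93182681-93183087.

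Each member was assigned to the gene of the nearest protein-coding start site, which gave 2132 genes. A nearest gene is a label of position, not a known target. Of these genes 1776 passed the filter on low values in the CD1 table, a mean rescaled value of at least 1. The RNA comparisons were between the same conditions as the rule, so the shares are read as descriptions. On 32 kPa, 617 of the 1776 rose (34.7%) and 790 fell (44.5%), against 32.4% higher and 41.1% lower of all tested genes. On 0.2 kPa, 622 rose (35.0%) and 751 fell (42.3%), against 32.0% and 39.2% of all tested genes. The median log2 difference of the assigned genes was -0.30 on 32 kPa and -0.23 on 0.2 kPa, beside -0.26 and -0.22 over all genes. Taken as a whole, the assigned genes were thus close to the background in both directions.

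The shares differed by distance. Where the nearest member lay within 10 kb of the start site, 180 of 357 tested genes rose on 32 kPa (50.4%) and 106 fell (29.7%), with a median log2 difference of 0.51. At 10 to 50 kb, 35.4% of 700 rose. At 50 to 100 kb, 61 of 260 rose (23.5%) and 150 fell (57.7%), and beyond 100 kb 27.9% of 459 rose and 52.1% fell. On 0.2 kPa the share that rose was likewise 50.4% within 10 kb and 22.3% at 50 to 100 kb. The other sets also had lower shares farther away. Beside regions gained on both gels and higher at day 14, 48.0% of genes within 10 kb and 29.9% at 50 to 100 kb rose on 32 kPa. Beside regions gained on 32 kPa with no 0.2 kPa list region the shares were 37.6% and 25.5%, with 39.3% of the genes within 10 kb falling. Beside lost regions the shares that rose were 36.3% and 18.6%. The number of members per gene showed no such gradient, with 34.7% of genes with 1 member, 34.3% with 2 and 36.5% with 3 or more rising on 32 kPa. Genes with AP-1 letters in a member rose in 34.8% of cases and genes with a member lacking them in 35.2%. These bins were chosen after the values were seen.

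**Figure D4:**
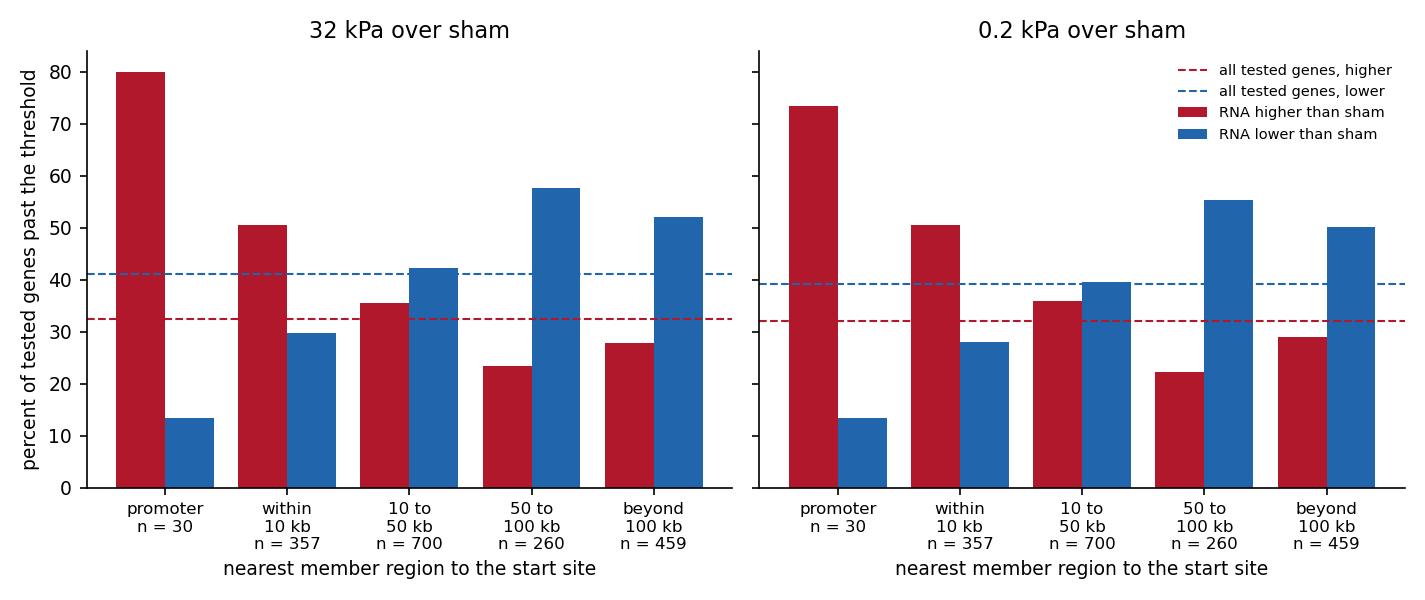
Percent of tested genes whose RNA was higher (red) or lower (blue) than sham with a limma adjusted p under 0.05, by distance of the nearest member to the start site, on 32 kPa (left) and 0.2 kPa (right). Genes with a promoter member are also counted within 10 kb, n is the number of tested genes, and dashed lines are the shares of all 18386 tested genes. On 32 kPa the share that rose was 80.0% at promoters, 50.4% within 10 kb and 23.5% at 50 to 100 kb.

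The 38 promoter members belonged to 37 genes, of which 30 passed the filter. Of the 30, 24 rose on 32 kPa (80.0%) and 4 fell (13.3%), against 32.4% higher and 41.1% lower of all tested genes. On 0.2 kPa 22 rose and 4 fell, against 32.0% and 39.2% of all tested genes. A gene nearly absent in sham could pass the filter through its gel values. At promoters of regions gained on both gels and higher at day 14 the counts on 32 kPa were 19 higher and 2 lower of 24 tested genes. They were 80 and 56 of 181 for regions gained on 32 kPa with no 0.2 kPa list region. For lost regions they were 3551 and 3891 of 9356. The genes with a promoter member that fell on both gels were Lnx1, Acvrl1, Psd3 and Dctn1, of which Acvrl1 encodes a receptor for BMP ligands. The promoter genes named in this paragraph beyond those of the naming rule were chosen after their values were seen. Akr1c18, which encodes an aldo-keto reductase that inactivates progesterone, had a log2 RNA difference of 7.92 on 32 kPa, beside a region with a log2 accessibility fold of 3.13. Fgd3, which encodes an exchange factor for the small GTPase CDC42, had 6.65 beside 2.88, and Ptchd4 had 7.23 beside 3.13. Nppb, which encodes the natriuretic peptide BNP, had 3.16 beside 2.97.

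Serpinb2 encodes an inhibitor of plasminogen activators, and its member covered the start site with its centre 40 bases before it. The authors' concentration there was 6.50 on 32 kPa, against 2.26 in sham. Its RNA had 41.5, 25.2 and 41.0 CPM on 32 kPa, 38.8, 37.5 and 30.8 CPM on 0.2 kPa, and 0.0882, 0.0443 and 0.0819 CPM in sham. The gel libraries all stood above the sham libraries, with a log2 difference of 8.51 on 32 kPa (SE 0.26, limma adjusted p = 6.73e-10). In the injury series, where the region was not in the day 14 list, Serpinb2 RNA had 24.2, 31.8, 34.9 and 15.7 CPM at day 14, against 0, 0, 0.182 and 0 CPM in C57BL/6 sham. Mmp10, which encodes a secreted metalloproteinase, had its member 103 bases before the start site. Its RNA had 27.5, 23.4 and 35.6 CPM on 32 kPa, against 0.300, 0.177 and 0.115 CPM in sham, and 10.96, 15.1, 8.77 and 6.52 CPM at day 14, against 0.313, 0.253, 0.104 and 0.364 CPM in C57BL/6 sham. Both genes therefore rose at day 14 too (limma adjusted p = 7.35e-06 for Serpinb2 and 9.16e-05 for Mmp10), although neither region was in the day 14 list.

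Hmga2 encodes an architectural chromatin protein of embryonic and proliferating cells. One member lay across its start site (chr10:120476169-120476917) and another in an intron 76.4 kb inside the gene (chr10:120399936-120400188). The accessibility folds were modest, at 1.82 and 2.48 on 32 kPa. The RNA had 759, 754 and 848 CPM on 32 kPa, 849, 834 and 783 CPM on 0.2 kPa, and 0.935, 0.576 and 0.688 CPM in sham, a log2 difference of 9.93 on 32 kPa (SE 0.14, limma adjusted p = 1.55e-11). At day 14 it had 1.59, 2.70, 5.33 and 3.12 CPM, against 0.0977, 0.0633, 0.0260 and 0.170 CPM in C57BL/6 sham. Every gel and day 14 library was above every sham library of its own series.

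Prl2c2 and Prl2c3 encode proliferins, secreted prolactin-family proteins known from placenta and growing fibroblast lines. They are near-identical copies, so how reads were divided between them is uncertain. Prl2c3 had 3 members, 0.161, 2.588 and 14.02 kb before the start site, and 125.1, 95.5 and 113 CPM on 32 kPa, 183, 190 and 171 CPM on 0.2 kPa, and 0.0176, 0.0148 and 0.0328 CPM in sham. Prl2c2 had 299, 223 and 235 CPM on 32 kPa, against 0.0705, 0.0886 and 0.0328 CPM in sham. Unlike Serpinb2, Mmp10 and Hmga2, Prl2c3 had at most 0.126 CPM in any day 14 library, and its day 14 difference from sham did not pass the threshold (limma adjusted p = 0.56). Whether these responses differ between culture and injury was not tested. The other genes with the largest increase on both gels were 1700012B09Rik and Gm3776. They had 1 sham read each, so their ratios on 32 kPa, 6200.5-fold (95% counting interval 1112 to 244950) and 4243-fold (761 to 167630), have wide intervals. Gm3776 belongs to a family of similar glutathione transferase genes, so its reads may be shared with copies.

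**Figure D5:**
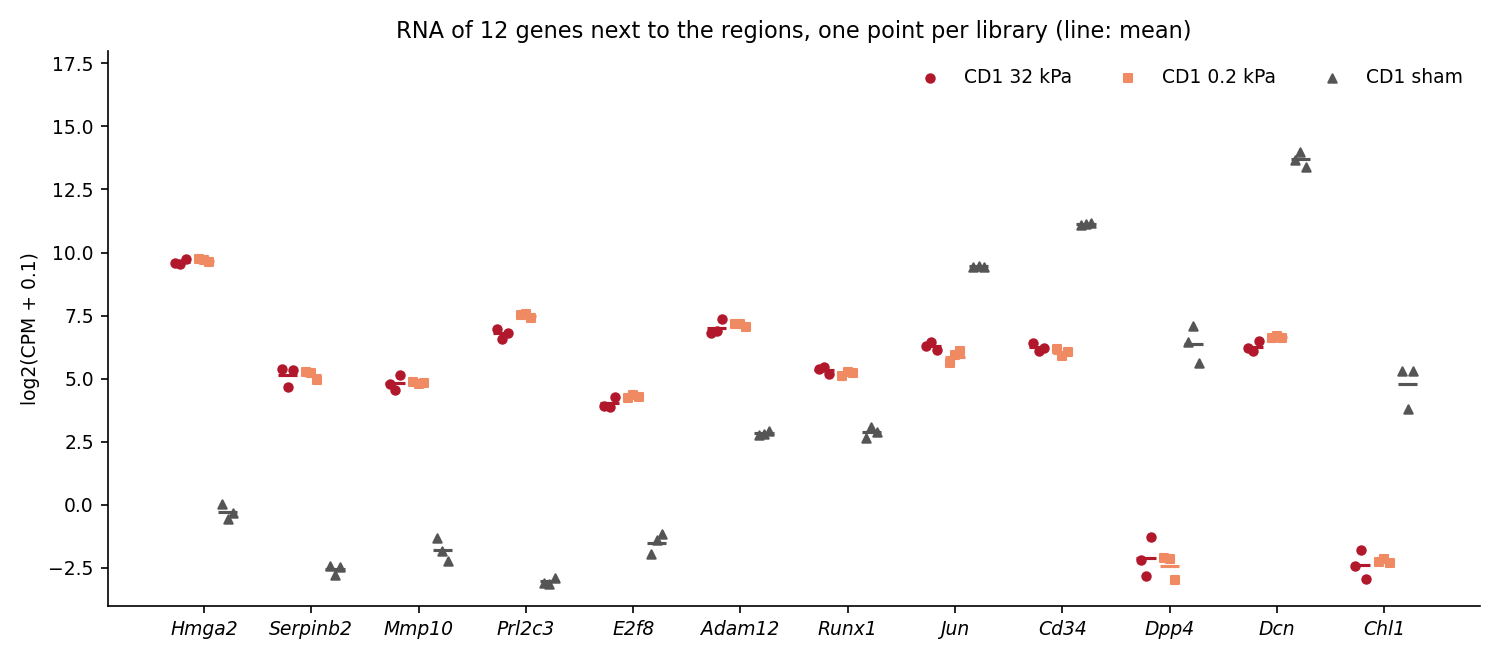
RNA of 12 genes with a member nearest to them, as log2(CPM + 0.1), in each library on 32 kPa, 0.2 kPa and in sham, with the mean as a line. The first 7 genes were higher in every gel library than in every sham library and the last 5, from Jun to Chl1, were lower in every gel library.

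Of 26 cell cycle genes, 3 had a member nearest to them, and all 3 rose on both gels, as did 25 of the 26. Among all tested genes, 32.4% rose on 32 kPa and 32.0% on 0.2 kPa. Over all genes, 1776 of the 18386 tested had a member nearest to them. E2f8, which encodes a repressor of the E2F family, had 15.1, 14.5 and 19.3 CPM on 32 kPa, against 0.159, 0.281 and 0.344 CPM in sham, and its member lay 18.1 kb before the start site. Foxm1, a driver of mitotic genes, had 109, 89.3 and 128 CPM on 32 kPa, against 3.84, 3.99 and 5.29 CPM in sham. Its member lay 747 bases before a Foxm1 start site, with its centre inside another Foxm1 transcript. Ccne1 encodes cyclin E1, and its log2 difference was 5.08 on 32 kPa (SE 0.28, limma adjusted p = 4.59e-08). Of the 26 genes, 22 rose at day 14, against 9.56% of all tested genes, but Ccne1 did not pass the threshold there (limma adjusted p = 0.075).

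Actin and contraction genes had 7 of 25 members of the list next to a region. Of these 7 genes, 5 rose and 1 fell on 32 kPa, against 16 and 6 of the 25. The shares of all tested genes were 32.4% higher and 41.1% lower. Diaph3, a formin that builds actin filaments, had 35.7, 23.4 and 90.6 CPM on 32 kPa, 79.5, 66.6 and 52.1 CPM on 0.2 kPa, and 1.76, 1.65 and 2.11 CPM in sham. Replicate 3 of 32 kPa stood above the others. Actn1, a crosslinker of actin, and Tpm4, a tropomyosin, had log2 differences of 2.44 and 2.002. Of 23 integrin and focal adhesion genes 11 rose and 11 fell on 32 kPa, and of the 5 nearest to a member Ptk2 and Tns3 rose. The integrins Itga1, Itga2 and Itgb3 fell, with log2 differences of -3.46, -2.65 and -1.39. The sham libraries were uneven, with 46.2, 12.6 and 45.6 CPM for Itga1 and 46.5, 20.3 and 51.1 CPM for Itga2. On 32 kPa Itga2 had 4.05, 3.67 and 16.7 CPM. The Itgb3 region, in an intron at chr11:104631403-104631641, was among the 116 in the list of the gels, with a log2 fold of 1.23 for 32 kPa over 0.2 kPa, while the RNA of Itgb3 on 32 kPa minus 0.2 kPa was -0.40 (SE 0.13, limma adjusted p = 0.79).

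Injury-induced fibroblast genes next to members were Adam12, Tnc and Inhba, and all 3 rose on the gels and at day 14. Adam12, a membrane metalloproteinase-disintegrin, had 112, 117 and 164 CPM on 32 kPa, 143, 144 and 131 CPM on 0.2 kPa, and 6.63, 6.88 and 7.58 CPM in sham. It had 21.7, 16.2, 28.8 and 24.6 CPM at day 14, against 0, 0.127, 1.14 and 0.606 CPM in C57BL/6 sham. Its member lay 12.5 kb before the start site and 415 bases from a day 14 region. That member was in the list of day 56 against day 14, with a log2 fold of -1.49 for day 56 over day 14. Tnc encodes tenascin C, a matrix glycoprotein of wounds, and had 305, 301 and 575 CPM on 32 kPa, against 45.3, 36.3 and 39.4 CPM in sham. The Tnc member was also in the list of day 56 against day 14, but higher at day 56, with a log2 fold of 1.12. Inhba encodes the activin A subunit and had 24.4, 26.6 and 128 CPM on 32 kPa, 77.1, 76.4 and 50.5 CPM on 0.2 kPa, and 10.5, 5.02 and 9.35 CPM in sham, so that 1 of the 3 libraries on 32 kPa carried most of the mean. Of the 22 genes of this list, 11 rose and 10 fell on 32 kPa, and 19 rose and 0 fell at day 14. The shares of all tested genes were 32.4% and 41.1% on 32 kPa, and 9.56% and 6.37% at day 14.

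Other regulated genes beside members included Txnrd1, the thioredoxin reductase and an NRF2 target, at 1152, 1083 and 1241 CPM on 32 kPa, against 72.5, 60.2 and 65.3 CPM in sham. Ccl2, a monocyte chemokine, and Ptgs2, the prostaglandin-forming cyclooxygenase 2, rose on 32 kPa by log2 differences of 2.52 and 1.98. Cxcl12, a chemokine of resting stroma, fell, with a log2 difference of -3.24. Fgf7, a growth factor for epithelium, rose by 1.19 on the log2 scale, while Tgfbr2, a TGF-beta receptor subunit, and Egfr, the EGF receptor, had log2 differences of -3.74 and -1.804. Adamts5, an aggrecanase, had one of -3.37.

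Gained accessibility also lay beside genes of resting fibroblasts whose RNA was lower on the gels. Of 4 alveolar and adventitial fibroblast markers with a member, all 4 fell on both gels, as did 19 of the 20 in the list. Among all tested genes, 32.4% rose and 41.1% fell on 32 kPa, and 32.0% rose and 39.2% fell on 0.2 kPa. Dpp4, a surface peptidase of adventitial fibroblasts, had 0.117, 0.0413 and 0.314 CPM on 32 kPa, 0.129, 0.128 and 0.0254 CPM on 0.2 kPa, and 86.4, 136 and 49.1 CPM in sham. Its region, in an intron at chr2:62350239-62350602, had a concentration of 7.25 on 32 kPa, against 3.13 in sham. Cd34, a sialomucin of the same cells, had 3 members and 85.7, 68.7 and 74.96 CPM on 32 kPa, against 2178, 2233 and 2275 CPM in sham. Dcn, which encodes the proteoglycan decorin, had 73.8, 69.0 and 89.7 CPM on 32 kPa, against 13151, 16195 and 10833 CPM in sham, and its member lay 69.5 kb before the start site. Of 7 lung mesenchyme transcription factors near members, 1 rose and 5 fell on 32 kPa, beside 6 and 16 of the 26 in the list, with Klf4 at -3.44, Ebf1 at -2.54 and Tcf4 at -1.48.

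The steepest falls on both gels among assigned genes were those of Col6a5, Col6a6, Ntrk2, Dpp4 and Ptgfr. Col6a6, a collagen VI chain, had 0.117, 0 and 0.135 CPM on 32 kPa, against 107, 87.8 and 83.3 CPM in sham. Its sister gene Col6a5 had a single read over the 3 libraries of 32 kPa and 12138 reads in sham. Ntrk2, a neurotrophin receptor, had 0.117, 0.165 and 0.584 CPM on 32 kPa, against 168, 168 and 140 CPM in sham, and Ptgfr, the prostaglandin F receptor, had 0.117, 0.578 and 0.748 CPM, against 136, 130 and 113 CPM in sham. The members in Col6a5, Col6a6 and Ntrk2 were intronic.

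The genes with the most members were Map3k7 and Adgrl4, with 8 each, followed by Thsd7b with 7, Pla2g4a, Nlgn1, Celf4 and Lingo2 with 6, and Cpe, Golim4 and Gpc6 with 5. The 8 of Map3k7, a kinase of TGF-beta and interleukin-1 signalling, lay 164 to 1384 kb before its start site, and its RNA differed by 0.39 (SE 0.12, limma adjusted p = 0.013). The RNA of Adgrl4, an adhesion receptor best known from endothelium, did not pass the threshold on 32 kPa (log2 difference 0.098, SE 0.46, limma adjusted p = 0.86). Pla2g4a, which encodes the phospholipase that releases arachidonic acid, rose by 0.98 on the log2 scale, and Cpe, carboxypeptidase E, by 1.51. Thsd7b, Nlgn1, a synaptic adhesion protein, and Gpc6, a glypican, fell, with log2 differences of -3.53, -3.83 and -3.08. Lingo2 had 0.496, 0.392 and 0.913 CPM on 32 kPa and no read in CD1 sham, so it was at least 40.1-fold higher on 32 kPa against a floor of 3 reads over the sham group. Among the genes with many members, RNA thus rose for some, fell for others and was not called for others again.

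The largest accessibility fold, 6.09 on 32 kPa, was at chr3:48074273-48074451, where the authors' concentration was 5.84 on 32 kPa, against -0.25 in sham. The nearest start site, of Pabpc4l, lay 1626 kb away, and its RNA did not pass the threshold. The 10 largest folds (5.63 to 6.09) were beside Pabpc4l, Erc2, Ryr2, Zp3r, Dsc3, Ctnnd2, Sox6, Stmn2, Nlgn1 and Gm9733. Ctnnd2, delta-catenin, and Erc2, a scaffold of the presynaptic zone, rose on 32 kPa by log2 differences of 3.55 and 3.58, while Ryr2, the cardiac calcium release channel, and Sox6, a transcription factor of cartilage and muscle, fell, with log2 differences of -5.98 and -4.98. Stmn2 did not pass the threshold, and Zp3r, Dsc3 and Gm9733 did not pass the filter. Erc2 had 3.59, 3.45 and 3.56 CPM on 32 kPa, against 0.282, 0.236 and 0.246 CPM in sham. Ryr2 had 0.0292, 0.144 and 0.195 CPM on 32 kPa, against 12.4, 2.19 and 12.5 CPM in sham.

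Between the gels, 0 of the 1776 assigned genes passed the threshold by limma in either direction (background 0% of all tested genes), and 109 (6.14%) had an unadjusted p under 0.05, against 5.46% of all genes. On the recovered reads edgeR called 0 and DESeq2 called 6 of the assigned genes, against 1 and 46 of all tested genes. Without replicate 3 of 32 kPa, limma called 15 assigned genes higher and 58 lower on 32 kPa, among 843 called of all tested genes.

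In the injury series 1720 assigned genes were tested at day 14, and 205 rose (11.9%) and 184 fell (10.7%), against 9.56% higher and 6.37% lower of all tested genes. Genes beside regions gained on both gels and higher at day 14 had 16.2% higher and 8.35% lower. Of the assigned genes called on both gels and at day 14, 276 moved the same way as on 32 kPa, 137 up and 139 down, and 50 moved against both gels. The share that moved the same way was 84.7% of these assigned genes, beside 84.1% of all genes called in the same 3 comparisons (2214 the same way and 418 against), so the assigned genes were close to the background. Chl1, a neural cell adhesion gene, had the largest day 14 change of these 50, with 191, 361, 267 and 158 CPM at day 14, against 0, 0, 3.51 and 0.728 CPM in C57BL/6 sham. On 32 kPa it had 0.0875, 0.186 and 0.0299 CPM, against 39.3, 13.8 and 38.9 CPM in CD1 sham. Its member lay 341 kb beyond the start site, outside the gene, and 418 kb from the nearest day 14 region. Adamts16, a secreted protease, had 3.75, 2.70, 2.50 and 3.90 CPM at day 14, against 0, 0, 0.0780 and 0.0485 CPM in C57BL/6 sham, and no read on 32 kPa, at least 79.6-fold lower than CD1 sham against a floor of 3 reads over the group. The summed CPM of 12 leukocyte markers was 617 to 2251 at day 14, against 244 to 368 in C57BL/6 sham, with 0 of the 12 at 0 reads in either group, and their part in the day 14 values was not tested. At day 56, 0 assigned genes rose and 1 fell by limma, against 0% and 0.00475% of all tested genes, and 133 (7.73%) had an unadjusted p under 0.05, against 6.29% of all genes.

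The libraries carried the markers of their labelled cell type. The summed CPM of 8 mesenchyme markers was 12725 to 13168 on 32 kPa, 11891 to 13665 on 0.2 kPa and 53932 to 64590 in CD1 sham, with none of the 8 at 0 reads. Markers of other cell types also had lower summed CPM on the gels than in CD1 sham. The 12 leukocyte markers summed to 13.5 to 14.4 CPM on 32 kPa, against 99.2 to 195 CPM in sham. Cd3e, C1qa, C1qb and Tyrobp were at 0 on 32 kPa. The 10 epithelial markers summed to 3.49 to 3.98 CPM on 32 kPa, with Krt8 at 0, against 134 to 372 CPM in sham. The 10 endothelial markers summed to 155 to 183 CPM on 32 kPa, with Cldn5 at 0, against 405 to 417 CPM in sham. The sums of pericyte and smooth muscle markers and of mesothelial markers were lower on both gels too. In CD1 sham these sums varied between libraries, from 687 to 2059 CPM and from 22.1 to 117 CPM. Relative to the mesenchyme sum, which was itself lower on the gels, endothelial markers were not scarcer. The part of these other cell types in the falls of RNA on the gels was not tested. RNA depth was 35858180 to 69524944 reads per CD1 library and 14288605 to 51288435 per C57BL/6 library.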

How the data were processed

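RNA-seq and ATAC-seq were measured in CD1 and C57BL/6 lung mesenchymal cells. The submitters' processing notes name HISAT2, featureCounts, DESeq2, Bowtie2, MACS2, DiffBind and HOMER with build mm10, without roles. Versions, strand setting, transposase shift and whether peaks came from single or pooled samples: not given in the sources used here. RNA values are, as the authors deposited them, a normalized signal for each gene, equal to whole reads divided by 1 factor per library (100% of values whole within 0.05 reads). The authors' ATAC lists hold, per the file headers, log2 concentrations and log2 folds per region with a p-value and FDR; the gel lists give sham minus gel, reversed here. CPM are the recovered reads scaled to each library's total.

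Regions were intersected with bedtools 2.31.1. RNA values were rescaled by median of ratios, filtered to a mean of at least 1 and tested as log2(value + 1) with limma 3.58.1 (R 4.3.3), 1 fit per table, Benjamini-Hochberg over all genes, threshold 0.05, so a log2 difference of a low gene is understated. Because the RNA tables hold normalized values and not raw counts, limma replaced edgeR as the main test; edgeR 4.0.16 and DESeq2 1.42.0 on the recovered reads were alternatives. Entries without a symbol (855 in CD1) were left out; they held 2.13 to 4.77% of a CD1 library's reads. The test was checked on simulated data. Same-numbered replicates were not treated as pairs.

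Genes named were the 10 with most members, those of the 10 largest folds, up to 3 called genes per pathway list, the 5 largest rises and falls on both gels, and up to 3 that moved against the gels at day 14, of which 1 is not reported here; the AP-1, TEAD and RUNX genes and promoter genes named beside them were chosen after their values were seen. Members and lists were chosen with earlier results of these data known.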

Additional observations from a re-analysis of the deposited data

Results flagged for a closer look

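Of 33 groups of 4 C57BL/6 libraries, from 11 genes in 3 groups each, 4 had a library far from the other 3. For normally distributed values chance gives about 1 in 20. That rate does not apply where the other 3 libraries were at 0, as for Adamts16 and Serpinb2. Adamts16 had 0.393 CPM in 1 day 56 library and 0 in the other 3. Serpinb2 had 0.0491 CPM in 1 day 56 library and 0.182 CPM in 1 sham library, with 0 in the others. Cd34 had 1951 CPM in 1 sham library, against 1423, 1460 and 1497 in the others.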

How the results depend on the processing

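Of 272 alternative values for the main counts, 249 stayed within 1.5 times and 23 did not. Counting only genes with a member within 10 kb gave 180 higher and 106 lower on 32 kPa, 180 and 100 on 0.2 kPa, and 48 and 29 at day 14, fewer because fewer genes were counted. Between the gels, leaving out 1 library gave 0 to 15 higher and 0 to 58 lower on 32 kPa, DESeq2 gave 1 and 5, and a mean of at least 10 or the values as deposited each gave 1 lower. At day 56, DESeq2 gave 6 higher and 6 lower, a pseudocount of 5 gave 2 higher, and leaving out 1 library gave 0 to 1 in either direction. The cause was not tested. Leaving out 1 library gave 575 to 608 higher and 747 to 803 lower on 32 kPa. With the replicate number as a block, 597 rose and 777 fell on 32 kPa, 182 and 154 at day 14, and 0 fell at day 56. Same-numbered libraries did not deviate together in every pair, so the numbers were not taken as pairs. The member count lay between 2759 and 2865 under other fold, FDR, overlap and list settings. For single genes, 2644 of 2688 values kept the call, 31 lost it and 13 gained it. Of these, 0 changed sign where either fit passed the threshold. Sign changes between uncalled values were not counted. Alternatives chosen after seeing the data were the count without Y, the count without members near a day 14 region, and the distance bins. The median of all genes on 32 kPa was -0.26, -0.34 with values as deposited and -0.11 with a mean of at least 10. Low read numbers limit the precision of genes with few reads, and no spread over ATAC libraries was used here.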
